A study of Mus musculus with 26 samples.

Results

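Chromatin accessibility was compared in Kupffer cells of CB6F1/J mice, F1 offspring of a cross between the BALB/cJ and C57BL/6J strains, with and without an injection of lipopolysaccharide (LPS), the outer-membrane glycolipid of Gram-negative bacteria. These libraries were chosen by their strain label and made up 9 of the 26 samples of the series, 5 of LPS-treated and 4 of control hybrids. All mice were male. The paper describes an overnight fast for mice given LPS and for their uninjected littermates. The control libraries used here are labelled chow, and the labels do not say whether these mice were fasted. An effect of fasting therefore cannot be told apart from that of LPS. LPS mice received 0.1 mg/kg E. coli LPS into the peritoneum for 2 h, whereas control mice received no injection, so the effect of LPS and that of being injected cannot be told apart. Cells were released from the liver by digestion in the presence of flavopiridol, an inhibitor of transcription elongation, and sorted as Kupffer cells. The assay was ATAC-seq: a transposase cuts open chromatin, and the number of sequenced tags at a site reads out how open it is. LPS-treated and control libraries of the parents, 3 and 4 of C57BL/6J and 2 and 4 of BALB/cJ, served for comparison. The labels number the libraries as replicates but do not tie each to a mouse, so p-values measure the spread between these libraries.

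Kupffer cells are the resident macrophages of the liver sinusoids and meet bacterial products carried in portal blood. LPS is sensed by TLR4 with its partners MD-2 and CD14, and signals through MyD88 and TRIF to the transcription factors NF-kB, AP-1 and the interferon regulatory factors. These factors act at promoters and at distant enhancers, many of which are already held open by the macrophage factors PU.1 and C/EBP, while others open only after stimulation.

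The 8 peaks below hold matches to motifs of these and other macrophage factors and are printed because the results turn on them: the Bach1, Nfkbia, Il27 and Tnip1 peaks lie away from the start and gained accessibility, Tnf and Ccl5 gained it close to the start, and Tnfaip3 and Timd4 lost it. Capitals mark matches to the motifs named in each line, and matches to other motifs stay in lower case, among them an ETS core in the Tnf peak. The letters, searched on both strands, were TGACTCA for AP-1, GGGNNTTTC for NF-kB, GGAATTTCC for the NF-kB palindrome, GAGGAAGT for PU.1, GGAAGT for the ETS core, which lies within the PU.1 letters, TGCTGAC for the MAF core, AGGTCA for the nuclear receptor core and TTGCNNAA for C/EBP. All are read from the plus strand of mm10.
Bach1 intron, chr16:87724888-87725088, AP-1: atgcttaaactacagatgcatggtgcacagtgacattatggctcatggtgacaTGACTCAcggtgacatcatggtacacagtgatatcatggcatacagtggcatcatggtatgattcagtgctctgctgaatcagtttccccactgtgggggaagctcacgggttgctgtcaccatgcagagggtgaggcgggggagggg
Nfkbia, intergenic, chr12:55466937-55467137, AP-1: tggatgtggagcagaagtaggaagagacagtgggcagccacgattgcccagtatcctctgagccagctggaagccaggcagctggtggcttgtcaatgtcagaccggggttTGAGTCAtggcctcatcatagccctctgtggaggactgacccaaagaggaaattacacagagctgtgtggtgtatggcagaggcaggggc
Il27, intergenic, chr7:126599051-126599251, AP-1: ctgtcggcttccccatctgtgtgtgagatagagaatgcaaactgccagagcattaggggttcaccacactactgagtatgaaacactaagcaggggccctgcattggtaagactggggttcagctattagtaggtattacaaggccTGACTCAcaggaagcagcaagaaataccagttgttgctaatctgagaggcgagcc
Tnip1 intron, chr11:54936169-54936369, AP-1 and ETS core: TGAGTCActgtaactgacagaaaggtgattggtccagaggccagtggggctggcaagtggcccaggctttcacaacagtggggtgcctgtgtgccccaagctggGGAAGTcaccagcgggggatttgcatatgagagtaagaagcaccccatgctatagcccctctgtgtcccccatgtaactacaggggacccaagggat
Tnf promoter, chr17:35202511-35202711, NF-kB and PU.1: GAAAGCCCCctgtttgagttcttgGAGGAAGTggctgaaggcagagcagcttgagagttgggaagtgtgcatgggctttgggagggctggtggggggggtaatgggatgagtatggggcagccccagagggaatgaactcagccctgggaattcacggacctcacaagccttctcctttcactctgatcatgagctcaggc
Ccl5 promoter, chr11:83530447-83530647, PU.1 and NF-kB: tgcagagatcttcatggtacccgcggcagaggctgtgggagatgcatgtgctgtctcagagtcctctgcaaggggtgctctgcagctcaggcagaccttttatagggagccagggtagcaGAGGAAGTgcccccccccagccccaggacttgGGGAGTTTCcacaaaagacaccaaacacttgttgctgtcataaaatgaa
Tnfaip3 promoter, chr10:19015388-19015588, NF-kB, NF-kB palindrome and AP-1: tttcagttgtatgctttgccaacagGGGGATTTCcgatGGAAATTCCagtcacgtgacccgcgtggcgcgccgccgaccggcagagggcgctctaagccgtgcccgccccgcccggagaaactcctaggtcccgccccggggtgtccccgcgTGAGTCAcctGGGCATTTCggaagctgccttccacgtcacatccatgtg
Timd4 intron, chr11:46817810-46818010, nuclear receptor core, MAF core and C/EBP: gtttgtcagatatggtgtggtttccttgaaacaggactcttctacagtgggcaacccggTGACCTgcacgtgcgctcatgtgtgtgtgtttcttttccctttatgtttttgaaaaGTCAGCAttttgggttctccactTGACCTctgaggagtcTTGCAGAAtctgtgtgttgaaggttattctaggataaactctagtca

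The libraries differed in ways other than treatment. Tags in autosomal windows numbered 15949618 to 24989611 per LPS library and 11481003 to 17588754 per control library. The LPS libraries carry the dates 20210331 and 20210407 in the file headers and the control libraries 20210213, so the effects of LPS and of library date cannot be told apart. The headers also give fragment lengths of 34.0 to 38.0 bp in LPS and 98.0 to 120 bp in control libraries, and 63.2% to 76.5% against 41.2% to 55.5% of variant-spanning tags in peaks. Near the satellite peaks of chromosome 2 lay 0.0711% to 0.132% of the tags of LPS and 0.676% to 0.777% of those of control libraries. Their part in the differences below was not tested. Correlations between libraries of a group were 0.794 to 0.921 in LPS and 0.689 to 0.781 in control Kupffer cells.

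Accessibility differed between LPS-treated and control hybrids at many sites. Of 210185 peaks tested with reads mapped perfectly to the C57BL/6J genome, 30036 rose (14.3%) and 22059 fell (10.5%) at an edgeR adjusted p under 0.05 and an absolute log2 ratio over 1. With the same reads mapped to the BALB/cJ genome, 30152 of 210300 peaks rose (14.3%) and 22019 fell (10.5%), and 29506 and 21282 were called on both genomes, with 0 called in opposite directions. The median normalised count of peaks that rose was 79.3 in LPS and 17.1 in control libraries, and that of peaks that fell was 8.70 in LPS and 36.9 in control libraries. Changes beyond 4-fold numbered 16009 up and 11823 down, and changes beyond 16-fold 2245 up and 1553 down. Tags were counted in 1000-bp windows that overlap between neighbouring peaks, and the peaks that rose fell into 25676 runs of overlapping windows and those that fell into 17870. Fewer cells of a type and less open chromatin per cell cannot be told apart in these bulk libraries. Scaling by library size in place of TMM moved the median log2 ratio of all peaks to -0.22, against -0.09, and the calls to 26000 up and 27421 down. Losses outnumbered gains with DESeq2 too, at 30010 up and 32415 down, whereas TMM on promoter peaks alone gave 34821 up and 16843 down, with a median of 0.06.

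Gains lay away from transcription starts more often than losses did. Within 1 kb of a start 6.98% of 31894 peaks rose and 12.6% fell, whereas 17.4% of 96247 peaks at 10 to 100 kb rose and 8.67% fell. Beyond 100 kb 3570 of 18791 rose and 1810 fell. Exonic peaks had 4.62% up and 15.7% down. Among peaks above the median of mean level the shares that rose were 9.20% within 1 kb and 28.7% at 10 to 100 kb. The share of all tags within 1 kb of a start was 36.0% to 37.4% in LPS and 38.9% to 41.5% in control libraries, with no overlap (adjusted p = 0.0247 over 14 library measures, two-sided exact permutation test; 0.0159 is the smallest unadjusted p that 5 against 4 libraries allow). The adjusted p was 0.05 to 0.0556 without control replicate 2, 3 or 4, where fewer libraries raise the smallest p that the test allows. The difference was -3.67 to -2.82 percentage points with any 1 library left out.

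**Figure D1:**
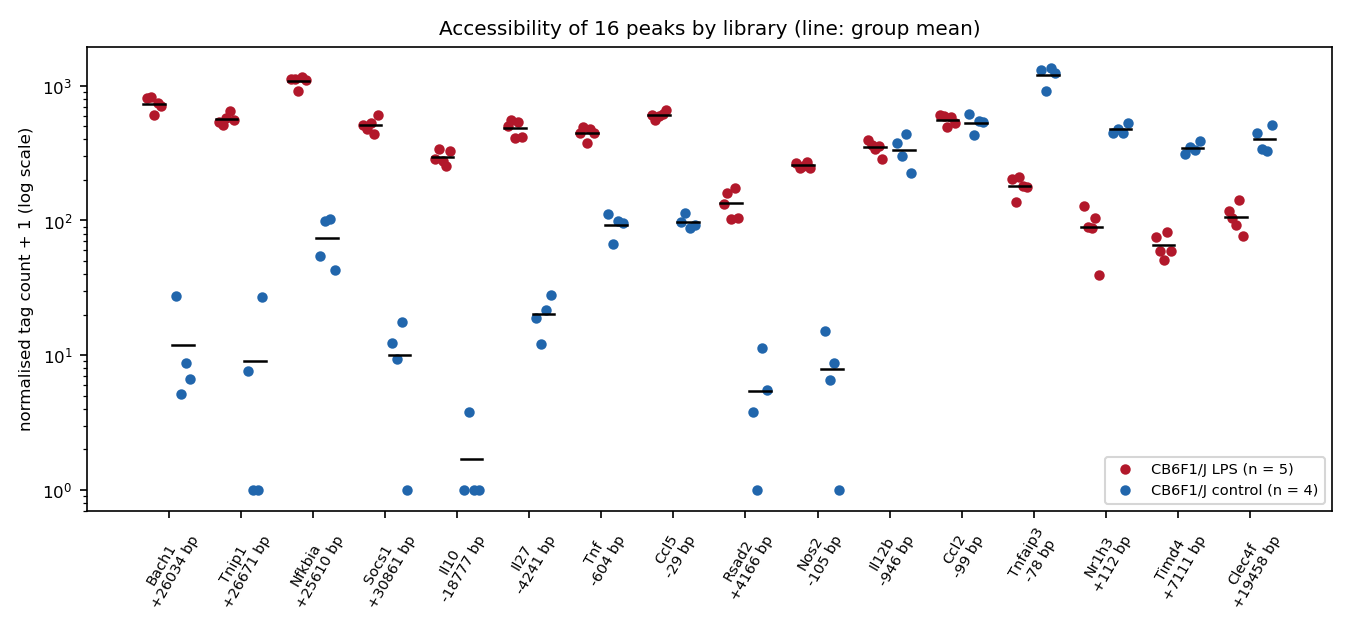
Normalised tag count plus 1 on a log axis at 16 peaks named by gene and distance from its start, with 1 point per library (5 LPS in red, 4 control in blue) and the group mean as a line. The LPS points lie above the control points at the first 10 peaks, overlap them at Il12b and Ccl2, and lie below them at Tnfaip3, Nr1h3, Timd4 and Clec4f.

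Some of the largest gains occurred where control cells had almost no tags. At the Il10 peak 18777 bp upstream of the start, normalised counts were 283, 339, 276, 252 and 329 in LPS and 0, 2.79, 0 and 0 in control libraries. Il10 encodes the anti-inflammatory cytokine IL-10. With 1683 tags in LPS and 2 in control libraries the ratio was 507, with a 95% counting interval of 140 to 4187. The peak in the Il10 promoter had 223, 297, 211, 181 and 238 in LPS and 245, 330, 359 and 278 in control libraries, which overlapped (log2 ratio -0.40 ± 0.18 SE, adjusted p = 0.0959). Peaks with 0 tags in all control libraries lay near Mndal, Esd, Pikfyve, Smpdl3a and Serpinb1c and were at least 169-, 132-, 127-, 63.6- and 56.2-fold higher in LPS, against a floor of 3 tags over the control group. Mndal is an interferon-inducible gene of a family with close paralogs, and tags there could be split between copies. All 113 tested peaks with 0 tags in every control library were called as gains and all 146 with 0 in every LPS library as losses, since they passed the filter on low counts only through the other group. At the Mrs2 peak counts were 0 in the 5 LPS and 12.2, 14.0, 46.2 and 63.0 in the control libraries, at least 63.7-fold lower in LPS.

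Genes for inhibitors that restrain NF-kB had distant peaks that rose and others that fell. The Nfkbia peak printed above, 25610 bp downstream of the start of the gene for IkB-alpha, had 1121, 1114, 912, 1151 and 1107 in LPS and 53.6, 97.8, 101 and 41.6 in control libraries. These did not overlap (log2 ratio 3.90 ± 0.21 SE, adjusted p = 7.30e-14), whereas the Nfkbia promoter had a log2 ratio of -0.56 and was not called. An Nfkbia peak 8844 bp upstream fell, with 1 tag in LPS and 94 in control libraries, a ratio of 0.00641 with a 95% counting interval of 1.60e-04 to 0.0366. Of 59 Nfkbia peaks 6 rose and 11 fell. The Tnip1 peak had 540, 507, 575, 653 and 551 in LPS and 6.59, 0, 0 and 25.9 in control libraries (log2 ratio 6.02 ± 0.41 SE, adjusted p = 5.98e-12). Tnip1 encodes a ubiquitin-binding partner of A20. The promoter of Tnfaip3, the gene for A20 itself, went the other way: it had 203, 136, 209, 179 and 176 in LPS and 1298, 914, 1350 and 1235 in control libraries, without overlap (log2 ratio -2.73 ± 0.15 SE, adjusted p = 1.60e-13). Over the 15 genes of the list 105 of 515 peaks rose and 58 fell (20.4% and 11.3%, beside 14.3% and 10.5% of all tested peaks). Their median log2 ratio was 0.09 and became -0.06 with library-size scaling. Of 40 promoter peaks 6 fell and 1 rose, beside 12.6% and 6.98% of all peaks within 1 kb.

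Genes for suppressors of signalling rose at distant peaks, and their starts varied. Socs1, an inhibitor of cytokine receptor signalling, had a peak at 30861 bp with 508, 473, 531, 439 and 610 in LPS and 11.3, 8.38, 16.7 and 0 in control libraries (log2 ratio 5.81 ± 0.33 SE, adjusted p = 2.57e-13). Socs3 rose at a peak 8664 bp upstream, by a log2 ratio of 2.80 ± 0.20 SE. Its peak at 152 bp also rose, by 1.11 ± 0.13 SE, close to the threshold and not called with library-size scaling or without control replicate 1 (0.94 was the lowest value over 22 settings). Dusp1, a phosphatase of MAP kinases, had 423, 455, 412, 375 and 460 in LPS and 89.4, 131, 88.5 and 84.4 in control libraries at 4100 bp upstream (log2 ratio 2.12 ± 0.18 SE, adjusted p = 7.09e-10), and -0.46 at its promoter, which was not called. Over the list of MAP kinase phosphatases and mRNA decay regulators 84 of 437 peaks rose and 42 fell (19.2% and 9.61%, beside 14.3% and 10.5% of all tested peaks). Of 34 promoter peaks 5 rose and 5 fell, beside 6.98% and 12.6% of all peaks within 1 kb.

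**Figure D2:**
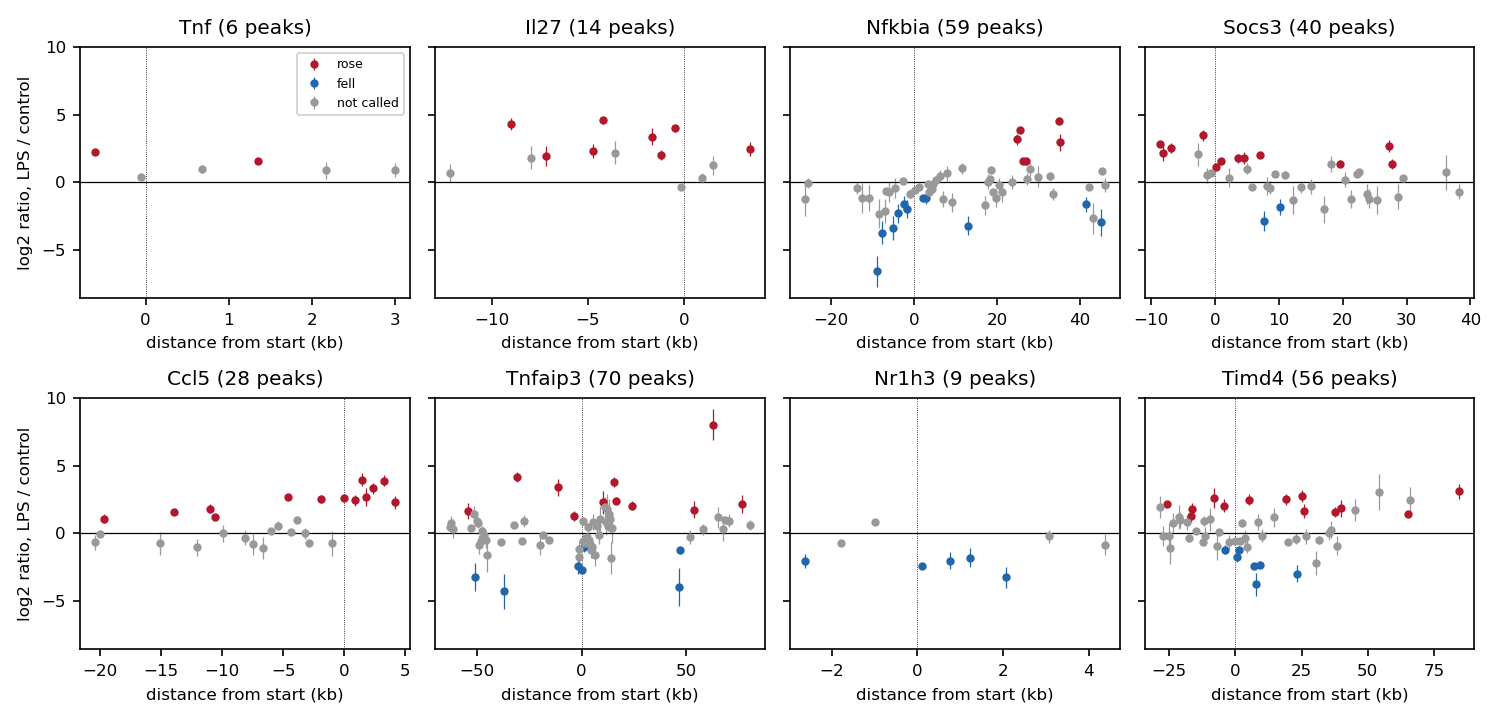
Log2 ratio of LPS over control (y axis, bars: standard error) of every tested peak within 100 kb of 8 starts, against its distance from the start in kb. Tnf, Il27 and Ccl5 have called peaks that rose and none that fell, the 5 called Nr1h3 peaks fell, and the Nfkbia, Socs3, Tnfaip3 and Timd4 loci hold both.

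Cytokine genes had the highest share of gains among the gene lists. Of 540 peaks nearest to 23 inflammatory cytokine genes, 212 rose and 20 fell (39.3% and 3.70%, beside 14.3% and 10.5% of all tested peaks), the median log2 ratio was 1.10, and each of the 23 genes had a peak that rose. Il27 encodes a subunit of the cytokine IL-27 and had a called gain at 8 of its 14 peaks. The Il27 peak 4241 bp upstream had 499, 559, 408, 540 and 418 in LPS and 17.9, 11.2, 20.5 and 27.0 in control libraries, without overlap (log2 ratio 4.64 ± 0.24 SE, adjusted p = 4.30e-14). The Il27 promoter had 340, 359, 365, 392 and 404 in LPS and 13.2, 16.8, 29.5 and 32.6 in control libraries, also without overlap (log2 ratio 4.02).

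At Tnf, the gene for tumour necrosis factor, neighbouring peaks differed. The peak 604 bp upstream had 443, 496, 376, 479 and 444 in LPS and 111, 65.7, 97.4 and 94.5 in control libraries, without overlap (log2 ratio 2.27 ± 0.19 SE, adjusted p = 2.17e-10), whereas the Tnf peak at -51 bp had 586, 663, 545, 586 and 605 in LPS and 453, 429, 491 and 492 in control libraries (log2 ratio 0.36) and was not called. The promoter peaks of Il6 (log2 ratio -0.12 ± 0.15 SE) and Il12b (0.06 ± 0.18 SE) were not called either, while Il6 rose 62111 bp upstream by 3.37 ± 0.27 SE and Il12b rose 9857 bp upstream by 2.02 ± 0.19 SE. Il1b, for interleukin-1 beta, was not called at its promoter (log2 ratio -0.95 ± 0.23 SE), a value near the threshold that passed it under 9 of 22 settings, among them those without LPS replicate 3 or without control replicate 1, 2 or 4 (lowest value -1.22).

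Chemokine genes, which attract leukocytes, had 92 of 340 peaks up and 22 down (27.1% and 6.47%, beside 14.3% and 10.5% of all tested peaks), with a median of 0.37. Ccl5 was the clearest promoter gain: 609, 551, 591, 620 and 661 in LPS and 96.0, 113, 87.2 and 92.2 in control libraries, without overlap (log2 ratio 2.64 ± 0.16 SE, adjusted p = 1.12e-12). Promoters of Ccl2 (log2 ratio 0.07), Ccl3 (-0.15), Ccl4 (-0.36), Cxcl1 (-0.47) and Cxcl10 (0.18) were not called. Peaks away from them rose, at Ccl2 (1.19), Ccl4 (3.49), Cxcl1 (3.72) and Cxcl10 (1.66). Among 17 peaks of Cxcl2 edgeR and DESeq2 called 0 gains, 2 were higher at an unadjusted p under 0.05, and the peak 5241 bp upstream fell by 1.37 on the log2 scale.

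Interferon-response genes had 163 of 580 peaks up and 22 down (28.1% and 3.79%, beside 14.3% and 10.5% of all tested peaks), with a median of 0.68. They had the most promoter gains of any list, 42 of 94, beside 6.98% of all peaks within 1 kb. Rsad2, for the antiviral enzyme viperin, had 132, 160, 101, 174 and 104 in LPS and 2.82, 0, 10.3 and 4.50 in control libraries at 4166 bp (log2 ratio 4.90 ± 0.47 SE, adjusted p = 3.63e-09). Mx1, an antiviral GTPase, had 303, 337, 248, 312 and 432 in LPS and 20.7, 8.38, 1.28 and 14.6 in control libraries at 12851 bp upstream (log2 ratio 4.77 ± 0.34 SE, adjusted p = 1.70e-11). Neither pair of groups overlapped. The promoter of Ifnb1, the gene for interferon beta, rose by a log2 ratio of 2.03 ± 0.43 SE (adjusted p = 5.81e-04).

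The other arms of the pathway changed less as lists. For the TLR4 complex and its adaptors 61 of 356 peaks rose and 22 fell (17.1% and 6.18%). For NF-kB subunits and IKK kinases 60 of 291 rose and 23 fell (20.6% and 7.90%). Over all tested peaks 14.3% rose and 10.5% fell. The medians of these lists, 0.04 and 0.02, became -0.10 and -0.13 with library-size scaling. Irak3, which restrains the MyD88 arm, rose at 12879 bp by a log2 ratio of 5.26 ± 0.49 SE, and Tlr4 rose at 64159 bp by 4.60 ± 0.52 SE. For glycolysis, hypoxia and itaconate genes 85 of 464 peaks rose and 34 fell (18.3% and 7.33%). Nos2, for inducible nitric oxide synthase, had 265, 243, 254, 269 and 246 at its promoter in LPS and 14.1, 5.59, 7.69 and 0 in control libraries, without overlap (log2 ratio 5.14 ± 0.38 SE, adjusted p = 3.28e-11).

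In the hybrid, genes for AP-1 factors and immediate early genes, which signalling induces within minutes, lost accessibility more often than they gained it. In the list of AP-1, ATF and small MAF factors 127 of 595 peaks fell and 70 rose (21.3% and 11.8%, median -0.43), and in the immediate early list 119 of 600 fell and 92 rose (19.8% and 15.3%, median -0.38). Over all tested peaks 10.5% fell and 14.3% rose. With TMM on promoter peaks the immediate early balance turned, at 98 down and 101 up, and that of the AP-1 list did not, at 108 down and 82 up. At immediate early genes 21 of 47 promoter peaks fell and 0 rose by edgeR, with 0 by DESeq2 and 2 higher at an unadjusted p under 0.05. Within 1 kb of a start 12.6% of all peaks fell and 6.98% rose. The Nr4a1 peak 7479 bp upstream had 20.4, 11.8, 11.4, 10.0 and 0 in LPS and 417, 258, 530 and 357 in control libraries, without overlap (log2 ratio -5.14 ± 0.36 SE, adjusted p = 1.25e-11). Nr4a1 encodes an orphan nuclear receptor. At Fosb 26 of 41 peaks fell and at Fos 37 of 103 fell, while 21 of 85 peaks of Bach1, a repressor that dimerises with small MAF proteins, rose. The Bach1 peak printed above had 813, 824, 602, 741 and 700 in LPS and 26.3, 4.19, 7.69 and 5.62 in control libraries (log2 ratio 5.94 ± 0.30 SE, adjusted p = 3.36e-14). Atf3 and Klf4 rose at distant peaks too, by 5.24 ± 0.34 SE and 4.45 ± 0.35 SE. Housekeeping genes, fixed as a background list, also had more losses, 61 of 247 peaks against 22 gains (median -0.70).

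**Figure D3:**
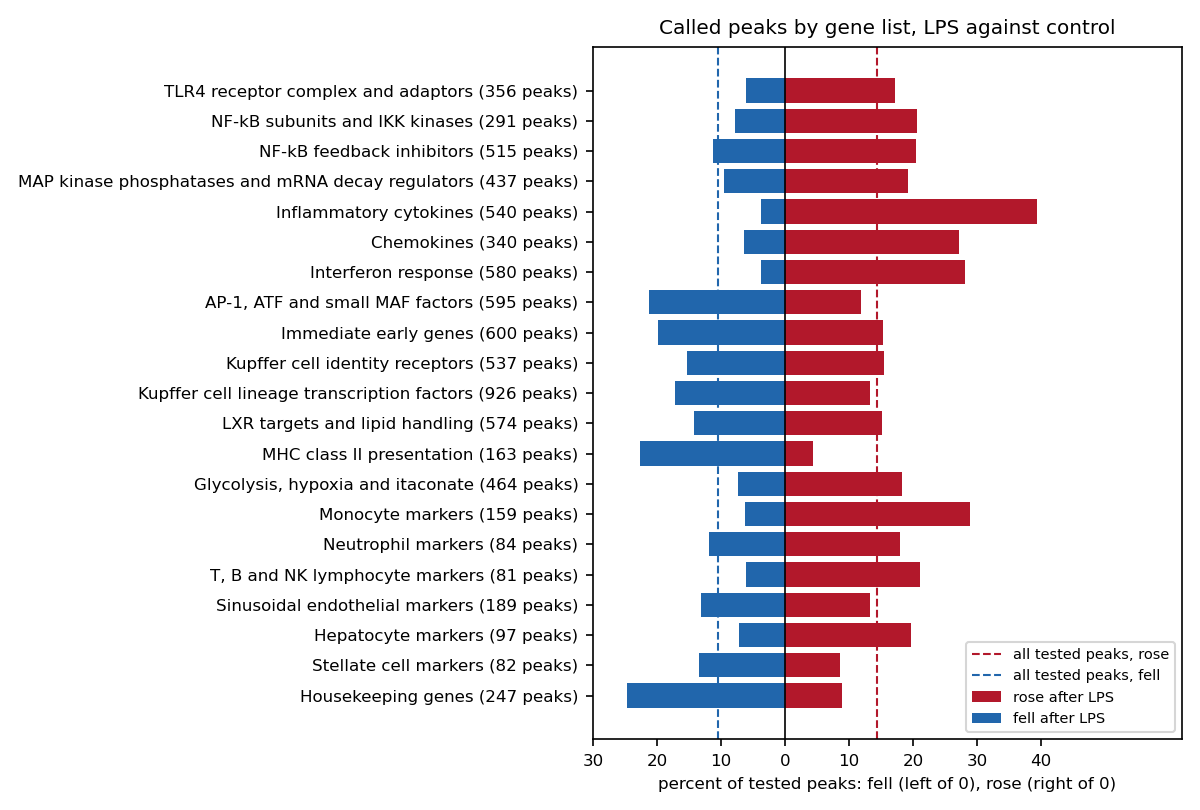
Percent of tested peaks that rose (red, right of 0) or fell (blue, left of 0) after LPS for each gene list, with the number of peaks in brackets and dashed lines at the shares over all tested peaks, 14.3% and 10.5%. Inflammatory cytokines reach 39.3% up, and housekeeping genes and MHC class II genes have the longest bars to the left, 24.7% and 22.7%.

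Genes of Kupffer cell identity had losses at some sites and gains at others. Nr1h3 encodes LXR-alpha, a lipid-sensing factor of Kupffer cell identity, and its peak at 112 bp had 127, 88.6, 86.2, 103 and 38.5 in LPS and 447, 476, 446 and 529 in control libraries, without overlap (log2 ratio -2.41 ± 0.22 SE, adjusted p = 1.86e-09). The Timd4 intron, in the gene for the phosphatidylserine receptor Tim-4, had 74.8, 58.8, 49.9, 80.9 and 58.8 in LPS and 311, 351, 335 and 389 in control libraries, without overlap (log2 ratio -2.41 ± 0.20 SE, adjusted p = 3.08e-10). Over the whole Timd4 locus 17 of 72 peaks rose and 7 fell, with a median of 0.61. The Clec4f promoter, of the Kupffer cell C-type lectin, fell by 1.88 on the log2 scale and its peak at 19458 bp by 1.94. A loss at Id3, a lineage regulator (-469 bp, log2 ratio -1.93 ± 0.18 SE), lay beside a promoter summit (-0.43) that was not called.

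Of 537 peaks of the identity receptors 83 rose and 82 fell (15.5% and 15.3%, beside 14.3% and 10.5% of all tested peaks). This balance turned to 73 up and 93 down with library-size scaling and 75 up and 85 down with trended scaling. Of 926 peaks of the lineage factors 123 rose and 159 fell (13.3% and 17.2%), a balance that turned with TMM on promoter peaks, where 139 rose and fewer fell. At promoters the receptors had 0 gains and 9 losses among 32 peaks and the factors 3 gains and 19 losses among 71, by edgeR. Within 1 kb of a start 6.98% of all peaks rose and 12.6% fell. For the receptors DESeq2 also gave 0 gains, and 4 promoter peaks were higher at an unadjusted p under 0.05. Adgre1, for F4/80, rose at an intronic peak with 295, 295, 194, 261 and 243 in LPS and 1.88, 1.40, 1.28 and 3.37 in control libraries (log2 ratio 6.91 ± 0.36 SE, adjusted p = 7.30e-14). Marco, a scavenger receptor for bacteria, rose 31041 bp upstream by 3.41 ± 0.33 SE and was not called at its start (0.49 ± 0.29 SE). Spic, a factor of iron-handling macrophages, rose at 6155 bp by 3.55 ± 0.36 SE. Cd5l had both, a gain at 1295 bp (2.17 ± 0.26 SE) and a loss at 73 bp (-1.03 ± 0.20 SE) that 4 settings, the one without LPS replicate 5 among them, did not call (highest value -0.82).

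LXR targets and lipid-handling genes had 87 of 574 peaks up and 82 down (15.2% and 14.3%, beside 14.3% and 10.5% of all tested peaks). This balance turned with library-size scaling (74 up and 105 down) and with trended scaling (78 up and 96 down). Of 61 promoter peaks 16 fell and 3 rose, beside 12.6% and 6.98% of all peaks within 1 kb. Abca1, the cholesterol exporter, rose 21876 bp upstream by a log2 ratio of 7.04 ± 0.49 SE, with 31 of its 100 peaks falling and 13 rising. Lipoprotein lipase, Lpl, rose at 2801 bp by 4.31 ± 0.36 SE. MHC class II genes, which present antigen to T cells, had 37 of 163 peaks down and 7 up (22.7% and 4.29%, median -0.81). At peaks matched to an inbred peak this excess of losses was not seen. There 3 of 60 rose and 3 fell in C57BL/6J mice (median -0.23). In BALB/cJ mice 7 of 57 rose and 2 fell (median 0.07). H2-Eb1 fell at 1225 bp by 2.16 on the log2 scale, with 9.07, 9.95, 17.7, 10.8 and 14.5 in LPS and 27.3, 122, 34.6 and 39.4 in control libraries.

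Marker genes of other cells were measured at their promoters. The summed level of Kupffer cell receptors was 3238 to 4026 in LPS and 5307 to 5759 in control libraries, and that of lineage factors 12478 to 14271 and 16091 to 17660, neither overlapping. Monocyte markers, with 9 of 12 genes represented, summed to 369 to 540 in LPS and 258 to 301 in control libraries (adjusted p = 0.0247, two-sided exact permutation test, and 0.05 to 0.0556 without control replicate 2, 3 or 4). Leaving out a control library also raises the smallest p that the test allows. Of 12 promoter peaks of the monocyte markers 1 rose and 0 fell. Ms4a4c had the highest mean of these genes, 115, and its peak at -26 bp had a log2 ratio of 3.11. The monocyte sum therefore does not stand for a rise across the whole list. Over all peaks of the monocyte markers 46 of 159 rose and 10 fell (28.9% and 6.29%, beside 14.3% and 10.5% of all tested peaks). Neutrophil markers summed to 889 to 1130 in LPS and 733 to 943 in control libraries, and hepatocyte markers, with 2 genes represented, to 67.5 to 113 and 155 to 208. Stellate cell markers, with 5 of 10 genes represented, summed to 1064 to 1619 in LPS and 1612 to 2175 in control libraries. These ranges overlapped (adjusted p = 0.0404, exact permutation test, and 0.0615 to 0.0909 without LPS replicate 2, 3, 4 or 5 or control replicate 2, 3 or 4). Hgf had the highest mean of these genes, 1409, beside mean sums of 1379 in LPS and 1845 in control libraries. The stellate sum therefore mostly reflects Hgf and does not stand for the whole list. Lymphocyte markers summed to 81.9 to 113 in LPS and 96.4 to 190 in control libraries (adjusted p = 0.0513, exact permutation test), and sinusoidal endothelial markers to 508 to 781 and 440 to 691. No represented marker gene was at 0 in all libraries. Their part in the gains and losses above was not tested.

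**Figure D4:**
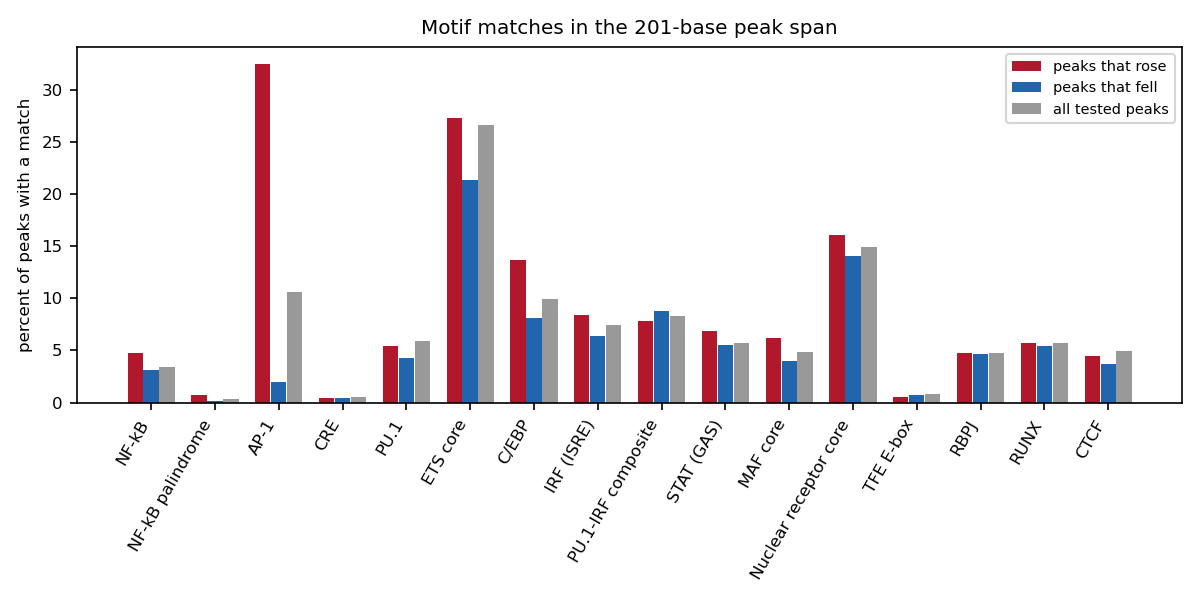
Percent of peaks with a match to each of 16 motifs among peaks that rose (red), peaks that fell (blue) and all tested peaks (grey). AP-1 stands at 32.5%, 2.02% and 10.6%, and the bars of most other motifs differ by a few percentage points.

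The AP-1 letters were the feature that most separated peaks that rose from peaks that fell, among 16 motifs searched. TGACTCA was present in 32.5% of the peaks that rose, in 2.02% of those that fell and in 10.6% of all tested peaks. Of peaks with 0, 1 and 2 or more AP-1 matches, 10.8%, 42.3% and 64.8% rose, and 11.5%, 2.13% and 0.369% fell. Matches in peaks that rose lay within 30 bp of the peak centre in 48.2% of cases, against 30.5% in peaks that fell and 44.3% in all. Beyond 1 kb of a start the shares were 33.4%, 2.26% and 11.7%. At all distances the median GC content of the spans was 47.3% in peaks that rose, 48.8% in peaks that fell and 49.3% in all. Beyond 1 kb it was 47.3%, 47.8% and 48.3%. The peaks of Bach1, Nfkbia, Il27 and Tnip1 printed above each hold 1 match, and the Tnfaip3 promoter, which fell, also holds 1. Printed peaks were picked among those with a motif match, so they do not bear on these shares. The Il10 peak at -18777 bp and the Esd peak rose without a match to any of the 16 motifs.

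NF-kB letters differed far less. GGGNNTTTC was present in 4.75% of peaks that rose, 3.11% of those that fell and 3.46% of all, and the palindrome GGAATTTCC in 0.732%, 0.181% and 0.338%. Of the 710 peaks with the palindrome 31.0% rose and 5.63% fell. Where NF-kB and AP-1 letters occurred together, in 779 peaks, 47.4% rose, beside 44.0% of all peaks with AP-1 letters. C/EBP letters, TTGCNNAA, were in 13.7%, 8.07% and 9.98%, those of PU.1 in 5.39%, 4.32% and 5.94%, and the MAF core in 6.21%, 3.99% and 4.87%. A match of letters is a description and not a binding site. AP-1 letters were in 46 of the 212 peaks that rose at cytokine genes (21.7%) and in 32 of the 163 at interferon-response genes (19.6%). Both shares were below the 32.5% of all peaks that rose.

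**Figure D5:**
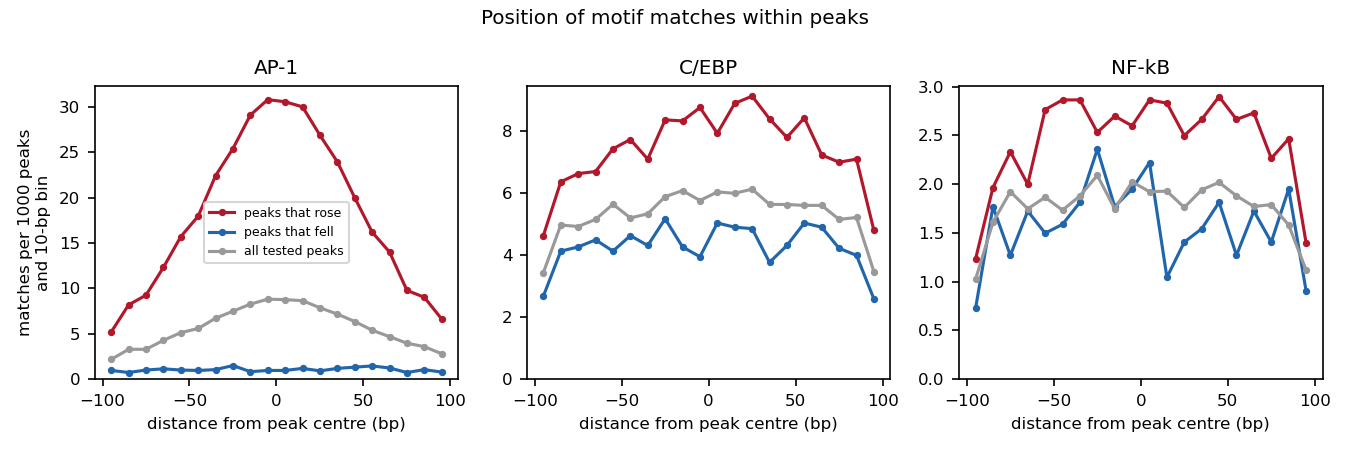
Motif matches per 1000 peaks in each 10-bp bin (y axis) against distance from the peak centre in bp, for peaks that rose (red), fell (blue) and all tested peaks (grey). AP-1 reaches 30.8 per 1000 peaks at the centre of peaks that rose and 0.952 in peaks that fell, while C/EBP and NF-kB have flatter profiles.

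The inbred parents were measured in a separate table, and 36.3% of the hybrid's tested peaks overlapped an inbred peak by at least 50% each way. At matched peaks of C57BL/6J, 9959 of 73466 rose (13.6%) and 4847 fell (6.60%), and at those of BALB/cJ 12705 of 74407 rose (17.1%) and 7841 fell (10.5%). A matched inbred peak was found for 54.8% of hybrid gains and 32.4% of hybrid losses, and the shares that follow are of peaks matched and tested. Of hybrid gains 55.6% also rose in C57BL/6J mice and 67.7% in those of BALB/cJ, and 88.5% of C57BL/6J gains and 84.8% of BALB/cJ gains rose in the hybrid. Of hybrid losses 36.4% fell in C57BL/6J mice and 50.8% in those of BALB/cJ, and 52.1% and 45.2% of the parents' losses fell in the hybrid. Opposite calls numbered 9 among hybrid gains and 18 among hybrid losses in C57BL/6J mice, and 12 and 6 in those of BALB/cJ. No test was made across the tables, which were normalised separately. Autosomal tags numbered 2795121 to 7436137 per C57BL/6J library, against 11481003 to 24989611 per hybrid library. BALB/cJ libraries held 3116162 to 4531291, except control replicate 4 with 46376759. The part of depth in these shares was not tested. Without LPS replicate 3 the C57BL/6J counts were 6074 up and 3117 down, and without LPS replicate 2 the BALB/cJ counts were 8323 up and 4854 down.

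Some of the peaks described above could be followed in the parents, where 7 of the 12 largest gains and 1 of the 12 largest losses had a matched inbred peak. The Bach1 peak had log2 ratios of 5.19 ± 0.52 SE in the C57BL/6J parent and 6.51 ± 0.57 SE in the BALB/cJ parent, and the Nfkbia peak 2.96 ± 0.32 SE and 2.94 ± 0.32 SE. The Nr1h3 peak fell by 1.33 and 1.42 on the log2 scale, and the Timd4 intronic peak by 1.64 and 2.41. The Tnf peak at -604 bp had 1.25 ± 0.50 SE in C57BL/6J, which missed the threshold (edgeR adjusted p = 0.0605), and 1.87 ± 0.56 SE in BALB/cJ (adjusted p = 0.00956). The Tnfaip3 promoter had no matched inbred peak.

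Of 38 key genes of the response and of Kupffer cell identity, 37 had a tested peak. Of their 1256 peaks 268 rose and 160 fell (21.3% and 12.7%, beside 14.3% and 10.5% of all tested peaks). Of the 95 within 1 kb of a start 16 rose and 16 fell, beside 6.98% and 12.6% of all peaks within 1 kb. Among the 36 highest promoter peaks 5 rose, 4 fell and 27 were not called. Slc7a2, a cationic amino acid transporter, rose both at its start (log2 ratio 1.49 ± 0.30 SE) and 11187 bp upstream (2.17 ± 0.20 SE), but the peak at its start had -0.52 ± 0.47 SE in C57BL/6J and 0.03 ± 0.62 SE in BALB/cJ mice. Plac8 rose 11135 bp upstream, with 585, 651, 484, 623 and 556 in LPS and 109, 96.4, 78.2 and 112 in control libraries (log2 ratio 2.54 ± 0.17 SE).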

How the data were processed

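The deposited hybrid table gives, for 217456 peaks, estimated counts of tags in 1000-bp windows, which the authors made with HOMER from reads mapped perfectly to mm10 or to the BALB/cJ genome, in steps of 0.5. The deposited table of inbred libraries holds tag counts made in the same way, and the authors' per-library peak files give signal and headers. FastQC, Bowtie2, HOMER, DESeq2 and mm10 are named in the submitters' processing notes, which give no version. The 18 columns of other tag sets were not used, and the mitochondrial share was not computed because the perfectly mapped columns hold 0 such tags.

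Values on chromosomes 1 to 19 were rounded to whole tags, scaled by TMM and tested with edgeR 4.0.16 (quasi-likelihood) in R 4.3.3. Peaks with a mean normalised count over 4 were kept, and calls needed a Benjamini-Hochberg adjusted p under 0.05 and an absolute log2 ratio over 1. Normalised counts are tags divided by the effective library size over its geometric mean. The standard error is the log2 ratio over the root of F. The inbred contrasts came from 1 model of 17 libraries. A peak belongs to the gene of nearest start. Named peaks were the 12 largest non-overlapping changes each way with a group mean of at least 30 and a start within 100 kb, up to 4 genes per list, and promoter and smallest-p peaks of key loci; sequences were read from the mm10 reference. The members, lists and motifs were chosen with earlier results of these data known. Intervals and floors cover counting error only. On simulated data with 200 of 208547 peaks changed, 43 of 50 peaks raised 8-fold, 10 of 50 raised 4-fold and 1 of 50 raised 2-fold were called. With so few changed peaks, and 1 fixed dispersion, the adjusted p sets a stricter cut than in the real data. These rates therefore do not carry over to the calls above. Alternatives were DESeq2 1.42.0, other scalings and minimum counts, left-out libraries, a replicate block, thinning, variant-spanning tags and 1 peak per run. Trended scaling, single library dates and the perfect-read peak lists were added after seeing the data.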

Additional observations from a re-analysis of the deposited data

Results flagged for a closer look

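In 22 of 230 groups of libraries 1 value stood apart from the rest of its group, by its gap relative to the range. For normally distributed values chance sets such a value apart in about 1 in 20 groups. Where all other counts were 0 any count stands apart, so the 22 groups cannot be set against that rate. In LPS libraries 1 normalised count was 2.71 at the Fosb (6559 bp) peak where the others lay between 0 and 0.756, 912 at the Nfkbia (25610 bp) peak where the others lay between 1107 and 1151 and 255 at the Ccl4 (3356 bp) peak where the others lay between 334 and 366. Other LPS counts apart were 88.7 at the Cd5l (73 bp) peak where the others lay between 171 and 191, 186 at the Id3 (-469 bp) peak where the others lay between 105 and 125 and 10.6 at the Cd74 (-9269 bp) peak where the others lay between 1.04 and 3.62. Further LPS counts were 0.771 at the Nfkbia (-8844 bp) peak where the others were at 0, 0.904 at the H2-Aa (3226 bp) peak where the others were at 0 and 246 at the Slc7a2 (-11187 bp) peak where the others lay between 339 and 370. In control libraries 1 normalised count was 1.40 at the Map10 (-32643 bp) peak where the others were at 0, 2.79 at the Il10 (-18777 bp) peak where the others were at 0 and 0.941 at the Zeb1 (-81492 bp) peak where the others were at 0. Other control counts apart were 88.5 at the Scaf4 (-8808 bp) peak where the others lay between 34.9 and 42.7, 131 at the Dusp1 (-4100 bp) peak where the others lay between 84.4 and 89.4 and 476 at the Irak3 (161 bp) peak where the others lay between 246 and 271. Further control counts were 4.70 at the Tnfsf15 (-11226 bp) peak where the others were at 0, 636 at the Cxcl10 (-53 bp) peak where the others lay between 584 and 588 and 26.3 at the Bach1 (26034 bp) peak where the others lay between 4.19 and 7.69. Also apart in control libraries were 2.82 at the Klf6 (70260 bp) peak where the others were at 0, 37.2 at the Marco (-31041 bp) peak where the others lay between 10.1 and 14.1 and 122 at the H2-Eb1 (1225 bp) peak where the others lay between 27.3 and 39.4. The fragment length in the file headers was 120 bp in 1 control library and 98.0 to 100 bp in the others.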

How the results depend on the processing

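Calls at 90 of 104 named peaks were the same under all settings run, and 47 of 2283 values passed to another side of the threshold. The replicate numbers did not pair the libraries, since same-numbered deviations had correlations of -0.0067 to 0.0033 over 141746 peaks. With the replicate block 14508 peaks fell on the C57BL/6J genome and 14527 on the BALB/cJ genome. With 1 peak per overlapping run, and so fewer peaks tested, 11248 and 11212 fell. With the LPS libraries of date 20210331, 13393 and 13412 fell, and with those of 20210407, 12735 and 12755 fell, both with fewer libraries and chosen after seeing the data. On variant-spanning tags, summed over both alleles and so 1 result for both genomes, 3759 rose and 2932 fell among 27217 tested. With these tags the Cxcl2 peak at -401 bp (1.42) and the Cxcl10 peak at -53 bp (-7.32) took the opposite sign. The cause was not tested. At a minimum mean of 16, 5553 peaks rose in C57BL/6J and 7118 in BALB/cJ. With library-size scaling 8 lymphocyte peaks fell, against 5. Leaving out 1 library, gains were 26071 to 30070 and losses 17100 to 23529 on the C57BL/6J genome, and 26137 to 30108 and 17067 to 23535 on the BALB/cJ genome. In the parents gains were 6074 to 11684 and losses 3117 to 6568 in C57BL/6J, and 8323 to 12750 and 4854 to 7808 in BALB/cJ. The differences of LPS minus control, with 1 library left out, were 5650806 to 7910805 for autosomal tags in windows, -3.67 to -2.82 for percent of tags within 1 kb of a start, 3.27 to 3.80 for percent of tags over 10 kb from a start, -0.655 to -0.621 for percent of tags near the satellite peaks of chromosome 2, -1892 to -1695 for Kupffer cell identity receptors, -3845 to -3322 for Kupffer cell lineage transcription factors, 193 to 236 for Monocyte markers, 175 to 254 for Neutrophil markers, -79.5 to -48.3 for T, B and NK lymphocyte markers, 13.3 to 96.9 for Sinusoidal endothelial markers, -90.1 to -72.4 for Hepatocyte markers, -544 to -356 for Stellate cell markers, 15.2 to 20 for percent of variant-spanning tags in peaks, -70.4 to -63.1 for fragment length in bp. Without control replicate 2, 3 or 4, 11 of these 14 measures lost their call (adjusted p 0.05 to 0.0909), and without 1 LPS library 1 or 2 did (0.0615 to 0.0727). Fewer libraries raise the smallest p that the exact permutation test allows, so a lost call does not by itself show a smaller difference. The differences kept their sign with any 1 library left out.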

Other observations

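Counted over all genes rather than the lists, the genes with the most separate runs of gains included Hdac9, with 50 of 116 peaks up and 0 down by edgeR (1 by DESeq2 and 1 at an unadjusted p under 0.05), Dst, with 51 of 124 up and 1 down, and Dock10, with 36 of 101 up and 1 down. Those with the most runs of losses included Itga9, with 57 of 190 peaks down and 8 up, Rxra, the partner of LXR, with 57 of 134 down and 6 up, and Nipsnap3b, with 47 of 68 down and 0 up by edgeR, by DESeq2 and at an unadjusted p under 0.05. Over all tested peaks 14.3% rose and 10.5% fell. These genes were chosen after their values were seen, and large loci hold more peaks.

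On the tags that span variants between the parental genomes, 26826 peaks could also be tested. Of 4461 that rose on perfectly mapped tags 2691 also rose, 45 fell and 95.2% kept the sign. Of 2442 that fell 1149 also fell, 5 rose and 95.2% kept the sign.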
